A study of Mus musculus with 21 samples.

Results

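The 14 libraries labelled EPHA2-KO, of the 21 in the series, were compared between the 2 clones of mouse pancreatic tumour cells they came from, 8 libraries of clone 6694c2 against 6 of clone 6419c5. They were chosen by label, as every library whose column name carries a clone and EPHA2-KO. All cells had been implanted under the skin of C57BL/6 mice, left untreated, and sorted from the tumours 3 weeks later. Each clone had 2 lines labelled EPHA2-KO, called KOA and KOB after the letters of the deposited table, with 4 libraries a line in 6694c2 and 3 a line in 6419c5. The comparison groups were the libraries whose titles carry the clone name alone, called WT, with 4 of 6694c2 and 3 of 6419c5. Nothing in the labels says how EPHA2 was edited, whether each library of a line is from its own animal, or which numbered line of the labels is KOA. Each group therefore stands for 1 tumour cell clone and each KO line for 1 derived line. The p values reflect only how far libraries within a line differ, and that spread may be technical.

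A tumour cell clone is grown from a single cell, so a fixed feature of that cell, such as a lost gene, a silenced promoter or an extra chromosome, is passed to every line derived from it. EPHA2 is a receptor tyrosine kinase that binds ephrins on neighbouring cells and is abundant in many carcinomas. Comparing KO-labelled lines of both clones, and then asking whether the same difference was there between the WT libraries, separates differences that the lines of a clone share from those found in particular lines. Pancreatic tumour cells range from a glandular state, with ductal keratins, mucins and the gastric products that appear in early pancreatic lesions, to a mesenchymal state with matrix genes.

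The gene with the largest difference toward 6419c5 was Cdkn2a, and its neighbour Cdkn2b had the next largest, so the stretches before their starts are shown first. Cdkn2a encodes p16, which inhibits CDK4 and CDK6, and from a separate first exon ARF, which protects p53 from MDM2; Cdkn2b encodes p15, another CDK4 and CDK6 inhibitor. The sequences are the 250 bases before each RefSeq start (GRCm38.p6, minus strand), 5′ to 3′, and capitals mark GGGCGG on either strand, a box bound by SP1-family factors. The first is chr4:89311033-89311282, before Cdkn2b, the second chr4:89294620-89294869, before the upstream start of Cdkn2a, and the third chr4:89282193-89282442, before its downstream start.
Cdkn2b: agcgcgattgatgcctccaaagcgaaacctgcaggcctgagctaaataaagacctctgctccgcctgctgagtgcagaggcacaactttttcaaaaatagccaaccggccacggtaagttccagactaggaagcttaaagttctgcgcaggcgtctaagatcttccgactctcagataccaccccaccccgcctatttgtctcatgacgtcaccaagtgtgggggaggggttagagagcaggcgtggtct
Cdkn2a, upstream start: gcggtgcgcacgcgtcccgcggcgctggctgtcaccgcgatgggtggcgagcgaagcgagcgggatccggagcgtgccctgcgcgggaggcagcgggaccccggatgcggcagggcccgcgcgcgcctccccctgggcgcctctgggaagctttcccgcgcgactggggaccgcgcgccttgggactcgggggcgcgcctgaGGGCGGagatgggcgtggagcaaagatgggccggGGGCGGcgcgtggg
Cdkn2a, downstream start: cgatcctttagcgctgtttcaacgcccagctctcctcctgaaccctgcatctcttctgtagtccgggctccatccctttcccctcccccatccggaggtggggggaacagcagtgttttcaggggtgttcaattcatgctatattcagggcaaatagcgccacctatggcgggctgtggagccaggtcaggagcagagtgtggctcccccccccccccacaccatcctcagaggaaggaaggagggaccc
The upstream stretch of Cdkn2a held 40 CpG dinucleotides and 2 of the boxes, its downstream stretch 7 CpG and none, and that of Cdkn2b 12 CpG and none. The median over the 32851 stretches of the same length in the table was 6 CpG, and 32.7% held the box on either strand. The deposited value is 1 number a gene, so transcripts from the starts of Cdkn2a cannot be told apart.

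Cdkn2a and Cdkn2b were near 0 in every library of 6694c2 and abundant in every library of 6419c5. In TPM (a share of all transcripts scaled to 1000000, not a count), Cdkn2a was listed at 0 in libraries 1 and 2 of 6694c2 KOA and at 0.298 and 0.55 in libraries 3 and 4. In 6694c2 KOB it was at 0, 0, 0.369 and 0.225. In 6419c5 it measured 716, 708 and 901 in KOA and 826, 927 and 917 in KOB. The WT libraries had the same split, with 0 in all 4 of 6694c2 and 883, 715 and 812 in 6419c5. Cdkn2b measured at most 0.205 TPM in the KO-labelled libraries of 6694c2 and 150 to 209 in those of 6419c5, with 0.138 to 0.332 and 197 to 230 in WT. On the log2(TPM + 1) scale used for all differences below, 6694c2 less 6419c5, Cdkn2a differed by −9.47 ± 0.12 (SE, adjusted p 3.2e-15, limma) and Cdkn2b by −7.42 ± 0.08 (adjusted p 1.4e-15). The WT clone difference of Cdkn2b was −7.41, and for neither gene was a change of the clone difference between KO-labelled and WT libraries called (0.17 and −0.01).

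Mtap and other genes nearby did not share this gap, while the gene model Gm12610 was also lower in 6694c2. Cdkn2a lies on chromosome 4 from 89274473 to 89294619 and Cdkn2b from 89306289 to 89311032 (GRCm38). Mtap, which recycles methylthioadenosine and starts at 89137370, measured 76.6 to 135 TPM in 6694c2 and 85.3 to 112 in 6419c5 among KO-labelled libraries, a difference of 0.04 ± 0.07 that was not called, although in WT it was higher in 6419c5 (−0.65). Between Cdkn2a and Cdkn2b, Gm12610, starting at 89295180, was called lower in 6694c2 among KO-labelled libraries (−1.27) and in WT (−1.05). The log2(TPM + 1) scale understates differences of low genes, so its smaller value does not set it apart from Cdkn2a and Cdkn2b. On the far side of Cdkn2b the next tested gene, Gm12669, starts at 91805550 (0.00, not called). Further off on the side of Mtap, the ceramidase gene Acer2 was higher in 6694c2 (2.36 ± 0.18, medians 22.9 and 2.98 TPM), and so was the ribosomal protein gene Rps6 (1.26 ± 0.09). Of the list of cell cycle inhibitors, cyclins and RB family genes, 3 of 19 tested were higher in 6694c2 and 7 in 6419c5, shares near or below those of all genes (22.7% and 36.0%). The former included Cdkn1b, which encodes the CDK inhibitor p27 (98.1 against 45 TPM in the median, 1.09 ± 0.04). The latter included Ccne1, encoding cyclin E1 (−1.24 ± 0.14). Trp53 (−0.13 ± 0.09, adjusted p 0.23) and Myc (−0.11 ± 0.10, adjusted p 0.34) were not called between the KO-labelled clones.

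**Figure D1:**
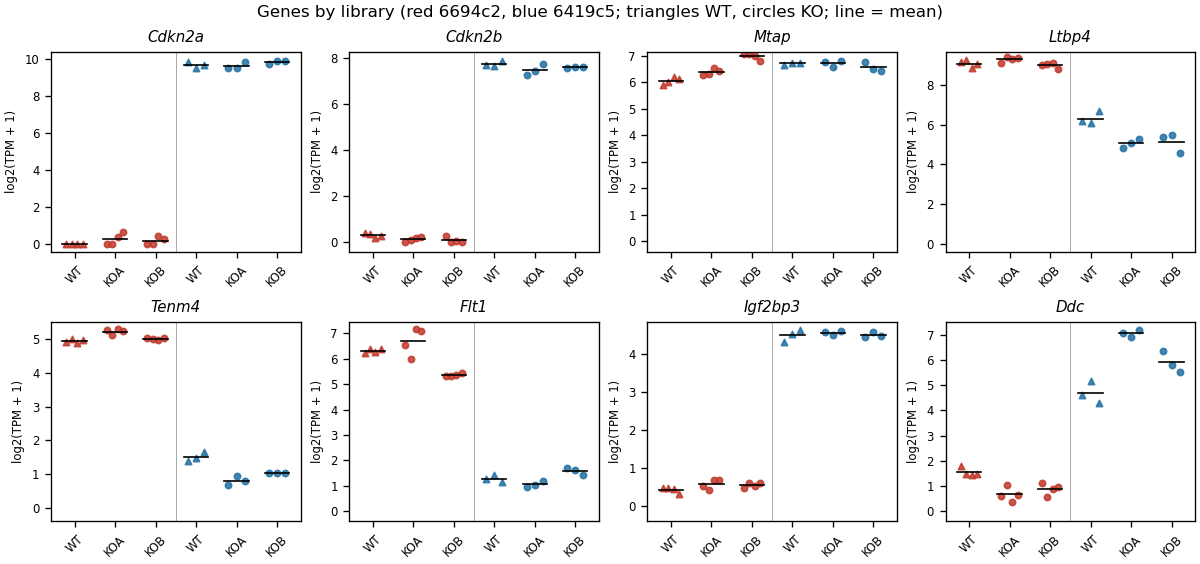
Values of 8 genes as log2(TPM + 1) (vertical axis) in all 21 libraries, by line (horizontal axis), with triangles for WT, circles for KO-labelled libraries, red for 6694c2, blue for 6419c5 and a bar at each line's mean. Cdkn2a and Cdkn2b lie at or near 0 in all 12 libraries of 6694c2, while Mtap does not separate the KO-labelled clones.

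The targeted gene was measured in every group. Epha2 measured 88 to 130 TPM (median 103) in KO-labelled libraries of 6694c2 and 144 to 221 (median 163) in those of 6419c5, against 240 to 252 and 164 to 190 in WT. All 8 KO-labelled libraries of 6694c2 were below all 6 of 6419c5, and the difference was −0.70 ± 0.09 (adjusted p 2e-05), while WT differed the other way by 0.47. The difference between these 2 values, −1.18, was called. In 6419c5 the KO-labelled and WT values overlapped, so the RNA level does not check the label of that clone; transcripts of an edited gene can remain. The clone difference in Epha2 was no longer called with the score of the fibroblast and pericyte list as a covariate.

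Across all genes, most clone differences called among KO-labelled libraries were also called, in the same direction, among WT libraries. The filter kept 14026 genes that reached 1 TPM in 3 or more of the 14 libraries, and 8241 (58.8%) differed between the KO-labelled clones at an adjusted p under 0.05, 3186 (22.7%) higher in 6694c2 and 5055 (36.0%) higher in 6419c5. Among WT libraries 7567 of the same genes (53.9%) were called. A difference is said to persist where it was called in the same direction in both, and 4908 did (35% of the genes tested), 1840 higher in 6694c2 and 3068 higher in 6419c5. They made up 59.6% of the calls among KO-labelled libraries and 64.9% of those among WT libraries. The share rose with size: 85.9% of called differences of at least 3 on the log2 scale persisted, 72.4% of those of at least 1 and 57.0% of those under 1. Where a difference is shared, a larger one passes the WT test more easily, so some of this rise is built in. Another 421 genes were called in opposite directions. In 4006 genes (28.6%) the clone difference itself differed between KO-labelled and WT libraries, and 1222 of the persisting genes were among them. Pearson's r between the 2 sets of clone differences was 0.633 across genes and Spearman's rho 0.625, a description over genes that are not independent, from groups that share no library.

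The number of calls depended on what counted as a replicate. All 8 libraries of 6694c2 lay above all 6 of 6419c5 for 968 genes (6.9%) and below them for 1968 (14%). Of these 2936 genes, 75.6% were separated in the same direction among WT libraries. Among WT libraries, being 4 against 3, 23.2% of all genes were separated with 6694c2 above and 32.9% with 6419c5 above, 56.1% in either direction. With the line as a random effect, the counts fell to 819 toward 6694c2 and 1610 toward 6419c5, and 1906 persisted. With the 4 line means as the values, those counts were 20 and 51, 2683 had an unadjusted p under 0.05 and 67 persisted. The median difference over all genes was −0.10, and it moved to −0.01 with median-of-ratios size factors and to 0.01 with quantile normalization. The share of calls higher in 6694c2 then moved from 38.7% to 49.6% and 50.8%, so the excess of genes higher in 6419c5 was not kept under these scalings.

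**Figure D2:**
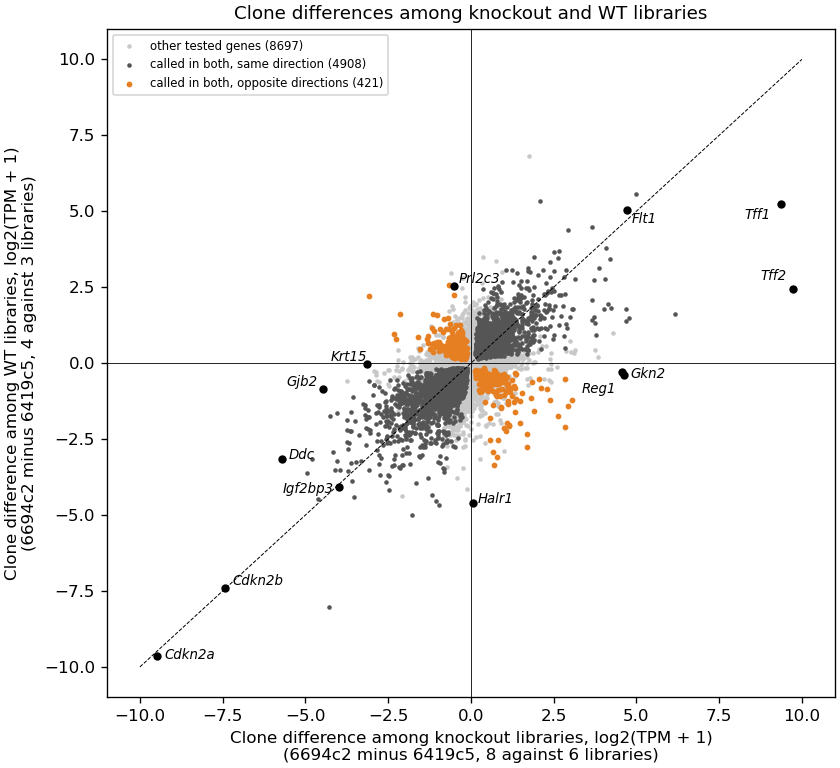
Clone difference of each of the 14026 tested genes among KO-labelled libraries (horizontal axis) and among WT libraries (vertical axis), in log2(TPM + 1), 6694c2 minus 6419c5, with the 4908 persisting genes in dark grey and the 421 called in opposite directions in orange. The dashed line marks equal differences: Cdkn2a, Cdkn2b, Igf2bp3 and Flt1 lie near it, Tff2 and Tff1 to its right, and Halr1 near 0 on the horizontal axis.

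The sorted libraries carried epithelial markers throughout: the keratin Krt8 measured 2234 to 2925 TPM in KO-labelled 6694c2 and 3993 to 5672 in 6419c5, while the summed level of 17 acinar markers was 28.8 to 116 TPM against 6.67 to 15.5. In 6694c2 that sum lay mostly in Cela1, an elastase gene, at 23.8 to 115 TPM against 1.78 to 7.8, and all 3 acinar genes tested were called, Cela1 toward 6694c2 and Prss2 and Try5 toward 6419c5. The acinar enzyme genes Prss1 and Cpa1 were at 0 in 14 of 14 libraries. Some libraries stood apart. Total macrophage marker TPM ran from 285 to 2150 in KO-labelled libraries of 6694c2 and from 593 to 9113 in those of 6419c5, the highest in library 2 of 6419c5 KOA. Libraries 1 and 2 of 6694c2 KOA differed from 3 and 4 in many genes below (Epcam at 53, 10.8, 1.07 and 0.864 TPM). With libraries 1 and 2 only, 4927 differences persisted, and with 3 and 4 only, 4851. The noncoding RNA Mir6236 took 145023 TPM in library 4 of 6694c2 KOB and 22665 to 47825 in the other KO-labelled libraries. The lines of 6694c2 differed from each other by at least 1 (log2) in 1619 genes and those of 6419c5 in 647, against 1431 genes for the clone difference. Among the 8241 called genes, 78.9% had the same sign in all 4 pairings of a 6694c2 line with a 6419c5 line, against 53.7% of all genes.

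The named persisting genes higher in 6694c2 were led by Tff2 and Tff1. They encode trefoil peptides that protect the gastric mucosa. Tff2 measured 363 to 3713 TPM (median 1661) in 6694c2 and 0 to 1.56 (median 0.49) in 6419c5 among KO-labelled libraries, a difference of 9.74 ± 0.27 (adjusted p 2e-11). Tff1 measured 233 to 6302 against 0 to 3.61, a difference of 9.38 ± 0.34. The groups did not overlap for either gene, and the WT differences were smaller, 2.43 and 5.23, with the change called. In WT, Tff2 measured 135 to 258 TPM in 6694c2 and 27.7 to 44.5 in 6419c5. Muc5ac, the gel-forming mucin of the gastric surface, had a difference of 4.69 ± 0.28, which rested more on KOB (94.7, 256, 148 and 133 TPM) than on KOA (4.98, 0.902, 5.54 and 5.86). Reg3b (6.15 ± 0.39) and Reg3g (4.69 ± 0.29) encode antibacterial lectins and may share reads as close relatives. The 4 KO lines did not contribute evenly to every difference. Here and in the paragraphs that follow, the clone difference fitted again without a line is given for many genes. These are genes where it moved by over 1.5 times or where leaving the line out ended the call. Not every such shift is given, so a gene without such a value was not necessarily stable. Muc5ac differed by 7.17 without 6694c2 KOA and by 2.21 without 6694c2 KOB.

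Flt1, the VEGF receptor 1 gene, measured 39.1 to 142 against 0.93 to 2.25 TPM (4.71 ± 0.15) and 73.9 to 83.6 against 1.23 to 1.66 in WT. Flt1 is usually an endothelial gene. The endothelial markers had a summed level of 12.9 to 35.5 TPM in KO-labelled 6694c2 and 23.5 to 48 in KO-labelled 6419c5. Of 7 tested, 5 were higher in 6419c5 and 0 in 6694c2, beside 36.0% and 22.7% of all genes. Cdh5, one of these markers, measured 0.45 to 15.1 TPM in 6694c2 and 1.32 to 6.12 in 6419c5. Whether endothelial cells contributed to the Flt1 values was not tested. Tenm4, a teneurin adhesion receptor, had the smallest spread of these genes, 30.8 to 38.3 against 0.598 to 1.05 TPM (4.20 ± 0.06). Ltbp4, which encodes a binding protein for latent TGF-beta, measured 455 to 687 against 22.6 to 43.7 TPM (4.05 ± 0.13). Mical1, an enzyme that oxidises actin, measured 26.5 to 41.2 against 0.643 to 1.52 TPM (4.07 ± 0.10). Also named were the sulfatase Sulf2 (4.14), the IGF binding protein Igfbp5 (4.01) and Megf6 (3.86). H2-Q7 (4.78) and H2-Q8 (4.23) encode nonclassical MHC class I proteins and are near-identical neighbours, so reads may have been split between them. Among KO-labelled libraries H2-Q7 measured 109 to 208 TPM against 0.499 to 13.3, and H2-Q8 108 to 211 against 0 to 69. In WT both were low, H2-Q7 at 3.54 to 7.35 TPM against 0.545 to 3.6 and H2-Q8 at 0 to 6.48 against 0. H2-Q8 differed by 2.41 without 6419c5 KOA.

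The named persisting genes higher in 6419c5 after Cdkn2a and Cdkn2b were led by Ddc, Ddah1 and Cdhr5. Ddc, the decarboxylase that makes dopamine and serotonin, measured 0.299 to 1.14 TPM in 6694c2 and 45.4 to 146 in 6419c5 (−5.72 ± 0.14), and 1.72 to 2.42 against 18.9 to 34.9 in WT. Ddah1, which degrades inhibitors of nitric oxide synthase, measured 0.441 to 1.16 against 37.2 to 81.5 TPM (−4.95 ± 0.11). Cdhr5, a cadherin of the brush border, measured 1.82 to 5.84 against 102 to 142 (−4.79 ± 0.18). Igf2bp3, an RNA-binding protein of fetal tissue and many tumours, had nearly the same value in every library of a clone, 0.329 to 0.621 against 20.9 to 23.6 TPM (−3.98 ± 0.07), and a WT difference of −4.08. Amdhd2 of amino sugar metabolism (−4.62), the desmocollin Dsc2 of desmosomes (−4.04) and the connexin Gjb2 (−4.46) followed. Also named were Klhl13 (−4.17), Krtcap3 (−4.11), the metallothionein Mt3 (−4.03), Tm4sf5 (−3.94) and the serotonin receptor gene Htr1b (−3.76).

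All 29 persisting genes named here kept their direction and call when any single line was left out and with the line as a random effect. They were chosen from these same libraries as the largest differences with all libraries separated. Keeping direction and call was therefore largely fixed in advance and is no support. With the 4 line means as the values, 13 of the 15 higher in 6419c5 were called (not Rhox5 and Mt3) and 7 of the 14 higher in 6694c2 (Tff2, Reg3b, H2-Q7, Reg3g, Tenm4, Mical1 and Ltbp4). Over all 14026 genes, 51 and 20 were called that way. The clone difference differed between KO-labelled and WT libraries in 8 of the 15 higher in 6419c5 and 11 of the 14 higher in 6694c2. For all genes that share was 28.6%, and the named genes were chosen for large differences.

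Rhox5, an X-linked homeobox gene of germ cells that is silenced by DNA methylation in most tissues, was at 1254 to 1835 TPM in KO-labelled 6419c5. Its values in 6694c2 were 412, 238, 503 and 525 TPM in KOA, 11.3, 16.5, 25 and 12.6 in KOB and 2.84 to 4.88 in WT. The clone difference was therefore −4.29 ± 0.19 among KO-labelled libraries and −8.04 among WT libraries, a called change of 3.75. Tead2, a DNA-binding partner of YAP, differed by line on both sides: it measured 105, 133, 127 and 138 TPM in KOA and 31.5, 25.7, 32.6 and 18.8 in KOB of 6694c2, and 1.42 to 2.2 in KOA and 4.23 to 7.61 in KOB of 6419c5. Its WT values were 104 to 117 and 41.8 to 75.3, so its difference of 3.79 ± 0.14 was larger than the WT difference of 0.94. Rhox5 differed by −6.59 without 6694c2 KOA. Rhox5 differed by −1.99 without 6694c2 KOB.

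**Figure D3:**
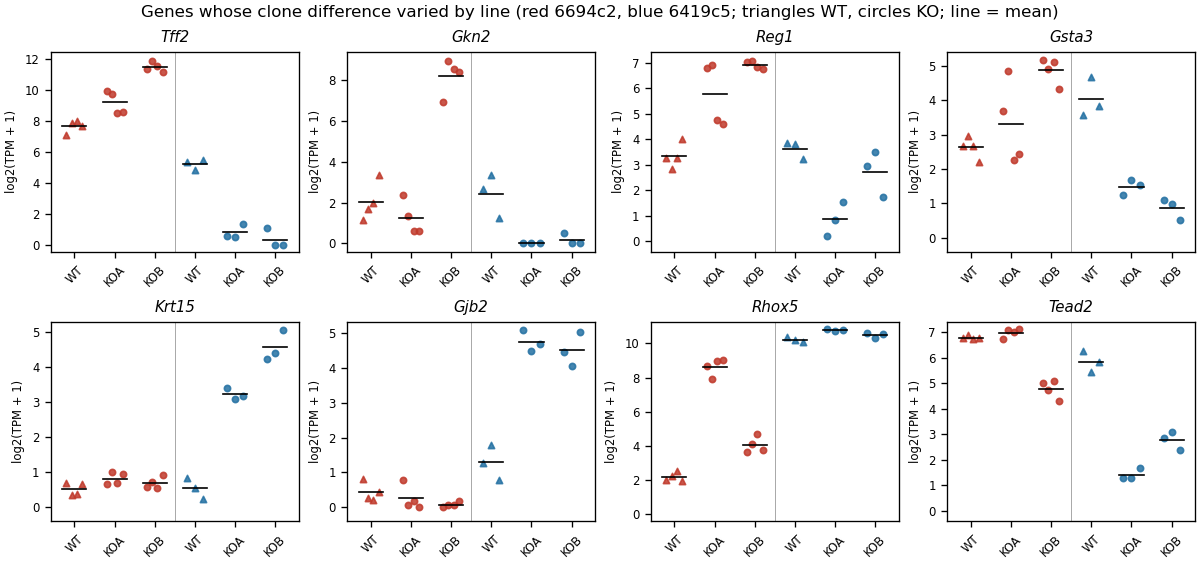
Values of 8 genes as log2(TPM + 1) (vertical axis) in all 21 libraries by line (horizontal axis), drawn with triangles for WT, circles for KO-labelled libraries, red for 6694c2, blue for 6419c5 and a bar at each line's mean. Gkn2 is high in 6694c2 KOB only, Krt15 in both KO-labelled lines of 6419c5 only, and Rhox5 differs between the KO-labelled lines of 6694c2.

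Gkn2, Gkn1, Reg1, Gsta3, Serpina1b and Tmem45a were higher in 6694c2 among KO-labelled libraries and not among WT libraries. Gkn2, encoding a gastrokine of gastric surface cells, measured 0.509 to 488 TPM in 6694c2 and 0 to 0.431 in 6419c5 (4.63 ± 0.32), against −0.38 in WT. The high values were those of 6694c2 KOB (121, 488, 369 and 332), and KOA had 4.14, 1.58, 0.509 and 0.535. Gkn1 (2.84 ± 0.38) was also high in KOB (16.7, 81, 52.5 and 48.1 TPM). Its KOA values (4.53, 0.508, 0.0914 and 0.191) overlapped those of 6419c5 (0.0832 to 0.509), and in WT it was higher in 6419c5 (−2.11). Reg1, a regenerating-family lectin of exocrine pancreas, measured 23.2 to 135 TPM against 0.159 to 10.5 (4.55 ± 0.41), against −0.28 in WT. The glutathione transferase Gsta3 measured 3.85 to 35.1 against 0.419 to 2.24 (2.93 ± 0.34), while in WT it was higher in 6419c5 (−1.41). The differences of Serpina1b (1.70, WT −2.75), a protease inhibitor with near-identical copies, and Tmem45a (2.63, WT −1.73) also turned. Tmem45a differed by 1.30 without 6419c5 KOA. Tmem45a differed by 3.97 without 6419c5 KOB. Gkn2 differed by 8.11, Gkn1 by 5.14 and Serpina1b by 0.79 without 6694c2 KOA. Gkn2 differed by 1.15, Gkn1 by 0.54 (not called), Serpina1b by 2.60 and Tmem45a by 1.70 without 6694c2 KOB.

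Toward 6419c5, the keratin genes Krt79 and Krt15 were among those that turned or appeared. Krt79, a keratin of hair and sebaceous ducts, measured 7.79 to 36.1 TPM against 64.9 to 377 (−3.09 ± 0.21), while in WT it was higher in 6694c2 (2.21). Krt15, a keratin of basal cells, measured 0.471 to 1 against 7.47 to 32.2 (−3.14 ± 0.13) and was low in both clones in WT (difference −0.02). Gjb2, named above, persisted with a smaller WT difference (−0.87) and measured at most 0.73 against 15.5 to 32.9 TPM. The protocadherin Pcdhgb2 (−2.13, WT 1.62), the imprinted noncoding RNA Meg3 (−2.31, WT 0.97) and the peroxidasin Pxdn (−2.26, WT 0.80) turned. Tmigd1 (−3.75, WT −0.60) was not called in WT, and Hgfac turned from 2.25 in WT to −0.50. Hgfac differed by −1.0 without 6419c5 KOA. Meg3 differed by −1.52 and Hgfac by −0.01 (not called) without 6419c5 KOB. Hgfac differed by −0.90 without 6694c2 KOA. Pcdhgb2 differed by −1.26, Pxdn by −1.23 and Hgfac by −0.10 (not called) without 6694c2 KOB.

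Other WT clone differences were not found among KO-labelled libraries. Halr1, a noncoding RNA of the Hoxa region, was listed at 0 in WT 6694c2 and at 16.4 to 40.1 TPM in WT 6419c5, and at no more than 4.15 and 1.42 among KO-labelled libraries (0.06 ± 0.28, not called). The tetraspanin Tspan11 (WT −4.15, KO-labelled −0.11), the collagen receptor Ddr2 (−3.77, −0.43) and podoplanin, Pdpn (−3.44, −0.25), had the same form, as had Pzp (−3.15, 0.29). Agr2 (−2.88, 1.01) had another form, measuring 0 to 1.49 TPM in WT 6694c2 and 1.47 to 22.6 in KO-labelled 6694c2. In 6419c5, Agr2 measured 7.25 to 14.6 TPM in WT, 13.4, 14.6 and 14.6 in KOA and 3.56, 1.33 and 1.82 in KOB. In the other direction were Mgp, the matrix Gla protein (WT 2.81, KO-labelled −0.25), the mast cell protease Mcpt8 (2.80, −0.25), Arap3 (2.46, −0.27), Cidec (1.73, −0.67), Spn (2.63, 0.33) and Prl2c3 (2.55, −0.52), whose family has near-identical copies. Not called did not always mean alike: Arap3 measured 21 to 81.6 TPM in 6694c2 KOA and 1.64 to 3.15 in KOB, with 11.7 to 18.7 in 6419c5 between them. Spn was likewise above 6419c5 in KOA (26.3 to 52.5 TPM against 7.69 to 10.6) and below it in KOB (2.57 to 3.74).

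Epithelial genes were higher in 6419c5. Of the 9 ductal markers, 8 were higher in 6419c5 and 1, Sox9, in 6694c2, with a median of −1.09 beside −0.10 over all genes and 58.8% of all genes called. Krt7, a ductal keratin, measured 33.3 to 349 TPM (median 133) in 6694c2 and 1239 to 1622 (median 1396) in 6419c5 (−3.65 ± 0.42). Krt19 (−1.09 ± 0.11), Cdh1, the E-cadherin gene (−0.91 ± 0.10), Muc1 (−1.79 ± 0.39), Epcam (−1.89 ± 0.61, adjusted p 0.017) and the claudin Cldn4 (−2.02 ± 0.27) were also higher in 6419c5. The KO-labelled values of Epcam overlapped, and its call was lost without 6419c5 KOA, with the replicate block (−1.49) and with the fibroblast and pericyte score (−3.18). In WT the list's median was −0.22, and Krt19 was higher in 6694c2 (0.56). Of 25 keratin and adhesion genes 14 were higher in 6419c5 and 2 in 6694c2, of 9 claudins 6 and 2, and of 11 squamous and basal genes 7 and 2. Epcam differed by −1.25 (not called) without 6419c5 KOA. Epcam differed by −1.05, Muc1 by −0.91, Sox9 by 0.73 and Cdh1 by −0.33 without 6694c2 KOA. Cdh1 differed by −1.49 without 6694c2 KOB.

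Transcription factors of the foregut differed in both directions, 8 of 15 higher in 6694c2 and 5 in 6419c5, beside 22.7% and 36.0% of all genes. Sox9 (1.26 ± 0.12) and Hhex (1.02 ± 0.13), both active in duct and pancreatic bud, were higher in 6694c2. Sox17, an endoderm factor, measured 0 to 0.243 TPM against 6.08 to 18.3 (−3.37 ± 0.10), and Cdx2, the intestinal factor, 5.05 to 9.77 against 38.7 to 52.8 (−2.40 ± 0.10). Gata6, a factor of the classical pancreatic tumour state, had a small difference (0.45 ± 0.08, 51.5 to 86 against 29.9 to 79.4 TPM). Pdx1 was not called (0.05 ± 0.07, adjusted p 0.56). Of the Hoxa genes 5 of 8 tested were higher in 6419c5 and 1 in 6694c2, and of the Hoxb genes all 4 tested. Hoxa10 measured 0 to 3.27 TPM against 14.5 to 31.3 (−3.54 ± 0.11), Hoxa13 0.0939 to 3.86 against 4.08 to 12.6 (−2.19 ± 0.20) and Hoxb6 0.216 to 1.65 against 2.03, 2.18 and 0.845 in 6419c5 KOA and 39, 45.8 and 36.7 in KOB (−2.58 ± 0.13). Of the gastric list, 11 of 19 were higher in 6694c2 and 5 in 6419c5, with a median of 0.80, against 0.02 in WT. The difference had changed in 12 of the 19, beside 28.6% of all genes. Hoxb6 differed by −4.57 and Gata6 by −0.04 (not called) without 6419c5 KOA. Hoxb6 differed by −0.59 and Gata6 by 0.94 without 6419c5 KOB. Gata6 differed by 0.71 without 6694c2 KOA. Hoxa13 differed by −1.44, Hhex by 0.63 and Gata6 by 0.18 (not called) without 6694c2 KOB.

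Many mesenchymal and matrix genes were also higher in 6419c5. Of 22 collagen genes 18 were higher in 6419c5 and 2 in 6694c2 (median −1.28, WT −0.73), and of 24 mesenchymal genes 16 and 2 (median −0.78), beside 36.0% and 22.7% of all genes. Col1a1 measured 27.6 to 418 TPM (median 81) against 324 to 1317 (median 667), a difference of −2.52 ± 0.27. Col1a2 (−2.64 ± 0.28), Col3a1 (−2.09 ± 0.30), periostin, Postn (−2.65 ± 0.20), tenascin C, Tnc (−2.50 ± 0.26), the gelatinase Mmp2 (−2.03 ± 0.26) and S100a4 (−1.83 ± 0.11) followed. Twist1, a transcription factor of mesenchymal cells, measured 0.948 to 3.53 against 20.7 to 37.4 (−3.18 ± 0.14). Vim, the vimentin gene, was not called (0.09 ± 0.05, 2440 to 3981 against 2651 to 3308 TPM). Of the fibroblast and pericyte list, which shares Col1a1, Col1a2 and Col3a1 with the collagens and none with the mesenchymal list, 11 of 15 markers were higher in 6419c5 and 2 in 6694c2, with a summed level of 132 to 971 TPM in 6694c2 and 751 to 2708 in 6419c5, and in WT 298 to 424 against 1332 to 2200. None of its defining markers was at 0 throughout: Pdgfra measured 0.388 to 3.17 against 1.16 to 4.65 TPM and Dcn 1.44 to 10.6 against 5.83 to 13.7. With the score of this list as a covariate, added after the data were seen and partly made of the same collagens, 10 collagens and 11 mesenchymal genes were still higher in 6419c5, with medians of −0.34 and −0.25. The same covariate reduced the genes called higher in 6419c5 from 5055 to 2135, and it left 7 WNT genes higher in 6694c2 and 10 in 6419c5, 6 and 4 cholesterol genes, 9 and 0 ribosomal protein genes and 2 and 3 acute-phase genes, lists described below. Fewer cells of a type and less RNA per cell cannot be told apart in these libraries. Col1a1 differed by −3.83, Col3a1 by −3.17 and S100a4 by −3.11 without 6694c2 KOA. Col1a1 differed by −1.22, Col1a2 by −1.5, Col3a1 by −1.01 (not called), Postn by −1.72, Tnc by −0.88 (not called) and S100a4 by −0.54 without 6694c2 KOB.

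**Figure D4:**
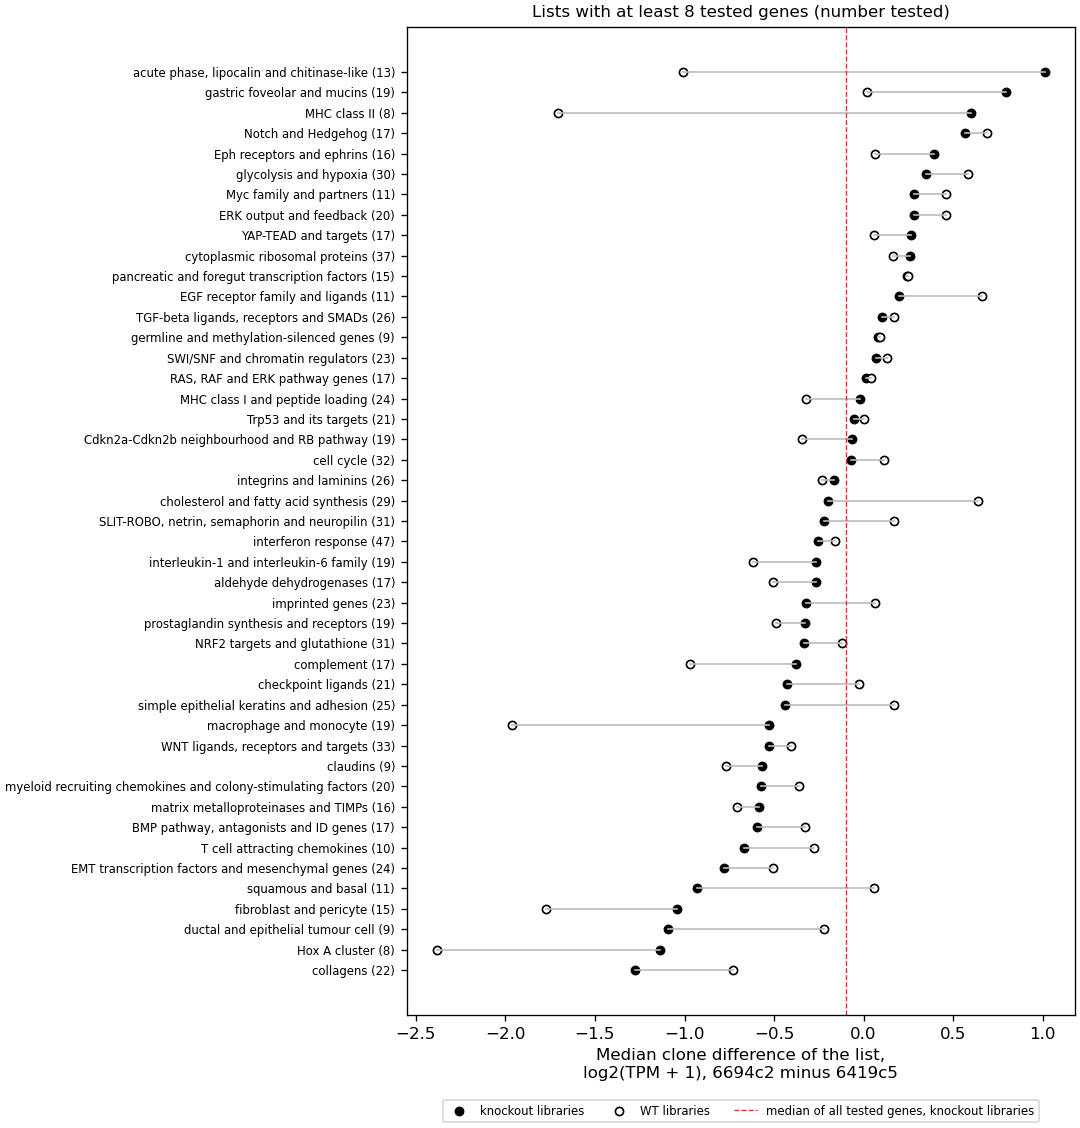
Median clone difference of each list with at least 8 tested genes, in log2(TPM + 1), 6694c2 minus 6419c5 (horizontal axis), with filled points for KO-labelled and open points for WT libraries, lists on the vertical axis with their number of tested genes, and a dashed line at the median of all genes. Collagens, the Hoxa genes and ductal markers lie lowest among KO-labelled libraries, and the acute-phase, gastric and MHC class II lists are those furthest to the right.

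Growth factor pathways differed in ligands, receptors and feedback genes. The EGF family ligands Btc, betacellulin (27.2 to 83.8 TPM against 12.4 to 16, 1.59 ± 0.10), and Hbegf (0.70 ± 0.13) were higher in 6694c2, as was the receptor Erbb3 (1.66 ± 0.21), while the receptor Egfr was higher in 6419c5 (−0.77 ± 0.14). Of the 20 genes induced by or feeding back on ERK, 10 were higher in 6694c2 and 3 in 6419c5 (median 0.28, WT 0.46), 65.0% in all beside 58.8% of all genes, and 22.7% and 36.0% by direction. The feedback inhibitor Spry2 measured 46.9 to 65.4 TPM against 20.5 to 27.9 (1.23 ± 0.08). Dusp4 (0.94 ± 0.11), Etv4 (0.78 ± 0.13) and Spred1 (0.76 ± 0.15) were also higher in 6694c2. Of 16 Eph receptors and ephrins 8 were higher in 6694c2 and 2 in 6419c5 (median 0.39, WT 0.06), 62.5% in all. The receptors Epha7 (5.16 to 10.6 TPM against 1.94 to 3.03, 1.30 ± 0.09), Ephb6 (1.07 ± 0.18) and Ephb3 (0.98 ± 0.19) were higher in 6694c2, with a called change from WT, where the differences were 0.18, −0.49 and −0.37. In WT the values of Epha7 did not overlap either (4.91 to 5.31 against 4.04 to 4.85 TPM). Efna1, the ephrin ligand most often paired with EPHA2, measured 67.4 to 168 against 36.3 to 59.8 TPM (0.97 ± 0.18) and persisted (WT 1.60). Hbegf differed by 0.40 (not called) and Spred1 by 0.34 (not called) without 6419c5 KOA. Spred1 differed by 1.18 without 6419c5 KOB. Btc differed by 0.98, Egfr by −1.22, Hbegf by 0.24 (not called), Dusp4 by −0.07 (not called), Etv4 by −0.05 (not called) and Spred1 by 0.19 (not called) without 6694c2 KOA. Ephb6 differed by 0.68, Erbb3 by 0.89, Egfr by −0.32 (not called), Hbegf by 1.17, Dusp4 by 1.96, Etv4 by 1.62 and Spred1 by 1.33 without 6694c2 KOB.

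In the TGF-beta list 13 of 26 were higher in 6694c2 and 4 in 6419c5, beside 22.7% and 36.0% of all genes, here and for the lists that follow. Among the first were Ltbp4 (above), the signal transducer Smad3 (67.6 to 144 TPM against 44.3 to 60.8, 0.88 ± 0.08) and the inhibitor Smad6 (0.76 ± 0.11). Tgfb1 itself was 0.42 ± 0.11 higher in 6694c2. BMP genes went the other way, with 11 of 17 higher in 6419c5 and 2 in 6694c2 (median −0.60). These included the ligands Bmp2 (1.18 to 6.61 TPM against 19.4 to 36.6, −2.50 ± 0.28) and Bmp4 (−1.83 ± 0.10), the stress-induced ligand Gdf15 (−2.33 ± 0.23) and the antagonist Grem1 (0.498 to 50.6 against 33.2 to 61.9 TPM, −2.57 ± 0.21). Of 33 WNT genes 19 were higher in 6419c5 and 5 in 6694c2 (median −0.53). Wnt10a measured 14.3 to 102 against 131 to 182 TPM (−2.16 ± 0.24). Wnt5a (−1.37 ± 0.16) and Rnf43, which removes WNT receptors from the membrane (−1.58 ± 0.15), were higher in 6419c5. Wnt7b (−1.47 ± 0.25) was also called. Of 17 Notch and Hedgehog genes 9 were higher in 6694c2 and 1, the ligand Ihh (−1.84 ± 0.33), in 6419c5, in all 58.8%, the share of all genes. The Notch ligand Dll1 (1.12 ± 0.17) persisted, and so did the Hedgehog-binding protein Hhip (1.63, 2.37, 23.3 and 20.6 TPM in KOA, but 0.0258 to 0.0636 in KOB), listed at 0 in all 6 KO-labelled libraries of 6419c5, a call lost without 6694c2 KOA or 6419c5 KOB. The transducer Smo measured 28.5 to 45.6 TPM in 6694c2 KOA, 3.77 to 6.06 in KOB and 2.78 to 3.75 in 6419c5 (1.85 ± 0.12) and was higher in 6419c5 in WT (−0.61). Of the YAP list 8 of 17 were higher in 6694c2, among them Tead4 (0.85 ± 0.12), and 6 in 6419c5, among them the targets Cyr61 (25.9 to 149 against 188 to 250 TPM, −2.08 ± 0.31) and Ctgf (−0.97 ± 0.10). Smad6 differed by 0.44 and Tgfb1 by 0.18 (not called) without 6419c5 KOA. Ctgf differed by −0.63 and Tgfb1 by 0.66 without 6419c5 KOB. Smad3 differed by 0.52, Grem1 by −4.73, Wnt7b by −3.41, Smo by 0.50, Ihh by −1.22 and Tgfb1 by −0.68 without 6694c2 KOA. Smad6 differed by 0.49, Grem1 by −0.41 (not called), Wnt10a by −1.28, Wnt7b by 0.48 (not called), Wnt5a by −0.80, Smo by 3.20, Dll1 by 0.69, Tead4 by 0.50 and Tgfb1 by 1.52 without 6694c2 KOB.

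Metabolic lists split by pathway. Of 30 glycolysis and hypoxia genes 19 were higher in 6694c2 and 3 in 6419c5 (median 0.35, WT 0.58), beside 22.7% and 36.0% of all genes, and 14 of the 19 persisted. Car9, a carbonic anhydrase induced by hypoxia, measured 100 to 576 TPM (median 379) against 34.4 to 57.3 (median 40.2), a difference of 2.81 ± 0.25, and 210 to 258 against 26.9 to 44.2 in WT. The lactate carrier Slc16a3 (1.41 ± 0.19) and the prolyl hydroxylase P4ha2 (0.94 ± 0.05) were higher in 6694c2, and Epas1, encoding HIF-2 alpha, was higher in 6419c5 (−1.55 ± 0.10). With the fibroblast and pericyte score as a covariate the split was 6 against 4. Of 37 ribosomal protein genes 24 were higher in 6694c2 and 4 in 6419c5 (median 0.26), with 13 separating all libraries. Rps6 (1251 to 2542 TPM against 751 to 834), Rps7 (0.97 ± 0.06) and Rps14 (0.77 ± 0.07) led, and all have processed pseudogenes that can share their reads. Of 31 NRF2 targets 19 were higher in 6419c5 and 7 in 6694c2, the former led by the glutathione transferases Gstt1 (10.2 to 97.3 TPM against 246 to 379, −2.71 ± 0.31) and Gstt3 (−2.05 ± 0.23) and the latter including Mgst1 (1.55 ± 0.18). Of 29 cholesterol and fatty acid genes 14 were higher in 6419c5 and 6 in 6694c2 (median −0.20, WT 0.64), and the clone difference had changed in 23, beside 28.6% of all genes. The synthesis genes Mvd (−0.93 ± 0.10), Cyp51 (−0.88 ± 0.11) and Hsd17b7 (−0.87 ± 0.09) were higher in 6419c5. Slc16a3 differed by 0.43 and Mgst1 by 0.61 without 6419c5 KOA. Slc16a3 differed by 2.38 and Mgst1 by 2.49 without 6419c5 KOB. P4ha2 differed by 0.38, Gstt1 by −1.78 and Gstt3 by −1.27 without 6694c2 KOA. P4ha2 differed by 1.5 without 6694c2 KOB.

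Immune lists differed in how many genes were called, beside 22.7% of all genes higher in 6694c2 and 36.0% higher in 6419c5. Toward 6694c2 and 6419c5, the counts were 4 and 8 of 19 interleukin-1 and interleukin-6 family genes, 1 and 5 of 10 T cell attracting chemokines, 4 and 8 of 21 checkpoint ligands and 2 and 8 of 20 myeloid chemokines and growth factors. For complement they were 3 and 6 of 17. Of 47 interferon response genes 5 passed the test toward 6694c2 and 13 toward 6419c5 (38.3% in all, beside 58.8% of all genes), and none separated all libraries. The chemokine genes Cxcl9 (20.9 to 53.1 TPM against 50.2 to 339, −1.27 ± 0.33), Cxcl10 (−1.12 ± 0.30) and Cxcl11 (−1.32 ± 0.26), which attract T cells, and Ubd (−1.29 ± 0.35) were higher in 6419c5 and not called without 6694c2 KOA, with the line as a random effect or with the fibroblast and pericyte score. The highest value of Cxcl9 was that of library 2 of 6419c5 KOB. In WT, Cxcl9 was at most 1.78 in 6694c2 and 5.48 in 6419c5. Of 24 MHC class I and peptide loading genes 3 were higher in each clone. H2-K1 measured 2029 to 3217 TPM in 6694c2 and 1717 to 5632 in 6419c5 (−0.02 ± 0.19, adjusted p 0.93). H2-Q4 (0.63, and 0.40 without library 1 of 6419c5 KOB) and H2-T10 (0.71) were higher in 6694c2, and the immunoproteasome subunit Psmb10 in 6419c5 (−0.68). No MHC class II gene of 8 was called by limma between the KO-labelled clones, although their median was 0.60 and in WT −1.71. The change was called in 5 of the 8, beside 28.6% of all genes. Cd74, the class II invariant chain gene, ran from 407 to 1712 TPM against 206 to 1843 (0.55 ± 0.42, adjusted p 0.28). Cd274, encoding PD-L1, was higher in 6419c5 (−0.70 ± 0.23, adjusted p 0.021), a call lost without 6419c5 KOA or 6694c2 KOB and with either library 2 of 6419c5 KOA or of KOB left out. Cxcl10 differed by −1.71, H2-T10 by 0.33 (not called), H2-Q4 by 0.15 (not called) and Cd274 by −0.60 (not called) without 6419c5 KOA. Cxcl10 differed by −0.53, H2-T10 by 1.09, Psmb10 by −0.45 and H2-Q4 by 1.1 without 6419c5 KOB. Cxcl11 differed by −0.78 (not called), Ubd by −1.05 (not called), Cxcl9 by −0.97 (not called), Cxcl10 by −0.98 (not called), Psmb10 by −0.29 (not called) and H2-Q4 by 0.55 (not called) without 6694c2 KOA. Psmb10 differed by −1.08, H2-Q4 by 0.71 (not called) and Cd274 by −0.53 (not called) without 6694c2 KOB.

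Secreted inflammatory products differed by gene, and 8 of 13 acute-phase, lipocalin and chitinase-like genes were higher in 6694c2 and 3 in 6419c5 (median 1.01, WT −1.01), beside 22.7% and 36.0% of all genes. Lcn2, lipocalin 2, measured 12.9 to 116 TPM against 2.31 to 13.4 (3.06 ± 0.39) while in WT it was higher in 6419c5 (−1.23). Chil4, a chitinase-like protein, measured 35.3 to 666 against 461 to 8620 (−2.86 ± 0.50, adjusted p 0.00025). Complement C4b (3.74 ± 0.61) measured 54.4 to 263 TPM in 6694c2 and 1.99 to 19.2 in 6419c5 apart from 86.7 in library 2 of KOA. Il1rn, the interleukin-1 receptor antagonist gene, measured 7.75 to 19.7 against 67.6 to 120 TPM (−2.83 ± 0.10), and Il33 26.2 to 70.7 against 85 to 200 (−1.40 ± 0.14). Il11 (2.27 ± 0.35) and Ctf1 (1.18 ± 0.12), ligands of gp130 receptors, were higher in 6694c2. Il11 was high in KOA only, at 12.9 to 66.5 TPM, with 0.633 to 1.33 in KOB overlapping 0.223 to 1.22 in 6419c5. Ptgs2, encoding the prostaglandin enzyme COX-2, measured 4.43 to 11.3 against 35 to 88.9 TPM (−2.80 ± 0.19) and was higher in 6419c5 also in WT (−1.61). Csf3 was −0.62 ± 0.20 (adjusted p 0.018), and Cxcl1 (−0.25 ± 0.50, adjusted p 0.69) and Csf2 (0.36 ± 0.44, adjusted p 0.51) were not called. Among 19 macrophage markers 2 were called, Mrc1 (−1.2 ± 0.43) and Cd14 (−0.28 ± 0.11), both higher in 6419c5. Neither call held without library 2 of 6419c5 KOA (−0.78 and −0.25) or with the line as a random effect. That of Mrc1 was also lost without library 1 of 6694c2 KOB or 3 of 6419c5 KOB, and was −0.40 without 6694c2 KOB. The call of Cd14 was lost on leaving out any 1 of 11 libraries and under other scalings, and turned to 0.15 without 6419c5 KOB. The T and NK cell markers summed to 7.1 to 15.8 against 3.79 to 12.8 TPM. The part of sorted-in host cells in these differences was not tested beyond the covariates above. Csf3 differed by −0.36 (not called) without 6419c5 KOA. Chil4 differed by −1.62 (not called) without 6419c5 KOB. Chil4 differed by −1.87, Il11 by 0.27 (not called) and Csf3 by −1.12 without 6694c2 KOA. Il11 differed by 4.27, Il33 by −0.85, Ctf1 by 0.73 and Csf3 by −0.11 (not called) without 6694c2 KOB.

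The median clone difference varied by chromosome, and 16 of 20 chromosomes lay on the same side of the median of all genes in KO-labelled and WT libraries. The genes of chromosomes 3, 16 and 8 had medians of −0.43 (702 genes), −0.42 (432) and −0.36 (781) among KO-labelled libraries, and −0.23, −0.37 and −0.27 among WT libraries, where chromosomes 10 and 1 (both −0.33) were lower than 3 and 8. On chromosome 3, 450 genes were higher in 6419c5 and 58 in 6694c2, and on chromosome 16, 293 and 30. Of all genes tested, 36.0% were higher in 6419c5 and 22.7% in 6694c2, a split that moved with the scaling (above). The genes of chromosomes 13 and 12 had medians of 0.23 and 0.19 (WT 0.23 and 0.16), and 264 of 547 genes of chromosome 13 were higher in 6694c2 against 65 in 6419c5. Over 20 chromosomes Pearson's r between the KO-labelled and WT medians was 0.831, and over 327 windows of 5 Mb with at least 15 tested genes it was 0.744 (rho 0.732), given as a description since neighbouring genes and the clones' libraries are shared within each set. The highest window was 20 to 25 Mb on chromosome 13 (0.71, WT 0.86, 77 genes, of which 49 were histone genes), and the lowest 145 to 150 Mb on chromosome 3 (−0.77, WT −0.51, 18 genes). The X-linked noncoding RNA Xist was present in all libraries (58.3 to 193 TPM against 139 to 215, −0.48 ± 0.21, not called), and the Y-linked Ddx3y was at no more than 0.147 and 0.174 TPM.

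**Figure D5:**
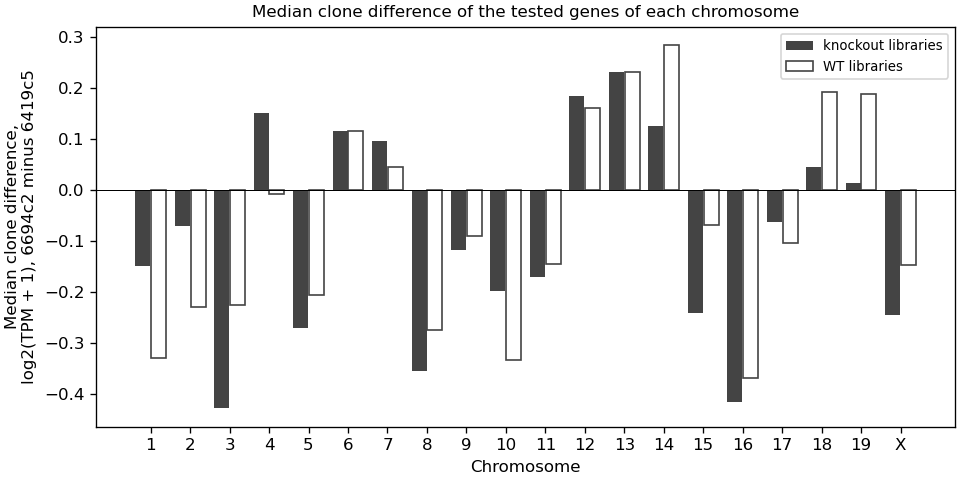
Median clone difference of the tested genes of each chromosome (horizontal axis) in log2(TPM + 1), 6694c2 minus 6419c5 (vertical axis), with filled bars for KO-labelled and open bars for WT libraries. Chromosomes 3, 8 and 16 are low in both sets and chromosomes 12 and 13 high in both.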

How the data were processed

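The authors deposited 1 table of gene-level TPM (24623 genes, 21 libraries, each adding up to 1000000), made with Salmon against mm10 per the submitters' processing notes. The Salmon version, annotation and read depth are not given in the sources used here, so no counting interval could be given and errors are spreads between libraries. Values were analysed as log2(TPM + 1), without rescaling, which understates differences of low genes. Genes reaching 1 TPM in 3 or more of the 14 KO-labelled libraries were fitted with limma 3.58.1 in R 4.3.3 (eBayes with trend): 4 line means for the KO-labelled libraries, weighted equally within a clone, 2 for WT, and 6 in a fit of all 21 for the difference between both, with Benjamini-Hochberg adjustment over 14026 genes at 0.05. The procedure was checked on simulated data with known changes. These were drawn with the spread within lines and without differences between lines of a clone, so the check does not cover such differences. The members and the 57 gene lists were chosen with earlier results of these data known.

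Genes were named by a rule, passing over systematic names. It took the 15 largest persisting differences each way with at least 5 TPM in the higher clone and all libraries separated, the 8 each way that were larger or reversed among KO-labelled libraries, and the 6 each way called in WT only, both with the change called. It added up to 4 called members of each list, for the lists described, and a fixed set. Positions are RefSeq GRCm38.p6, matched for 13995 genes, 313 by synonym. Alternatives were other pseudocounts, filters, scalings, covariates, blocks, models and libraries or lines left out. Some named genes are not reported here.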

Additional observations from a re-analysis of the deposited data

Results flagged for a closer look

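For 92 of the 153 tested genes named above, the clone difference among KO-labelled libraries differed from that among WT libraries in the fit of all 21 libraries (limma, adjusted p under 0.05). Many were named by a rule that asks for this, so the count is no result. Values are log2(TPM + 1), KO-labelled less WT. The difference between the differences was furthest toward 6694c2 for Tff2 (7.31), Gkn2 (5.01), Gkn1 (4.95), Reg1 (4.83), Halr1 (4.68), Reg3b (4.54), Serpina1b (4.45), Tmem45a (4.37), Gsta3 (4.34), Lcn2 (4.29), Tff1 (4.15), Tspan11 (4.05), Agr2 (3.89), Rhox5 (3.75), Pzp (3.44) and Ddr2 (3.35). After these came C4b (3.32), Reg3g (3.29), H2-Q7 (3.28), Pdpn (3.19), Muc5ac (2.90), Tead2 (2.85), Cd74 (2.52), Smo (2.46), Igfbp5 (2.23), Sulf2 (2.19), Il11 (1.72), Ephb6 (1.56), Ihh (1.47), Wnt5a (1.37), Ephb3 (1.35) and Hoxb6 (1.34). Smaller values of that sign were Ltbp4 (1.28), Hhex (1.25), Epha7 (1.12), Hoxa10 (0.88), Tenm4 (0.76), P4ha2 (0.73), Tead4 (0.73), Megf6 (0.71), Mtap (0.69), Cdkn1b (0.59), Ctgf (0.59) and Rps6 (0.41). Toward 6419c5, Krt79 (−5.30), Pcdhgb2 (−3.75), Gjb2 (−3.60), Meg3 (−3.28), Tmigd1 (−3.15), Krt15 (−3.12), Prl2c3 (−3.07), Mgp (−3.07), Mcpt8 (−3.06), Pxdn (−3.05), Hgfac (−2.75), Arap3 (−2.73), Ddc (−2.56), Chil4 (−2.56), Dsc2 (−2.41) and Cidec (−2.40) stood furthest. Next in that direction were Spn (−2.30), Tnc (−2.28), Cxcl10 (−1.67), Krt19 (−1.65), Cdhr5 (−1.64), Slc16a3 (−1.58), Htr1b (−1.54), Gdf15 (−1.49), Il1rn (−1.44), Csf3 (−1.41), Epas1 (−1.34), Cxcl11 (−1.33), Ddah1 (−1.33), Bmp4 (−1.32), Klhl13 (−1.25) and Ptgs2 (−1.2). Lower in size were Epha2 (−1.18), Cyp51 (−1.15), S100a4 (−1.15), Hbegf (−1.1), Sox17 (−1.0), Gata6 (−0.97), Egfr (−0.87), Cdx2 (−0.80), Il33 (−0.78), Cd14 (−0.77), Cdh1 (−0.69), Dusp4 (−0.68), Mvd (−0.62), Myc (−0.57), Tgfb1 (−0.57) and Smad3 (−0.42).

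Groups of 4, 6 or 8 libraries were examined for these genes with a Dixon test. Chance gives about 1 in 20 for a single normal sample, but the groups of 6 and 8 pool 2 lines, so that rate need not hold there. In 19 of 459 groups, 1 library stood further from the rest than the test allows. In WT 6694c2 these were Ddc (2.42 TPM, the highest), Pcdhgb2 (11.7 TPM, the highest), Pdpn (4.34 TPM, the highest), Hoxa13 (0.11 TPM, the highest), Btc (73.2 TPM, the lowest), Egfr (20.1 TPM, the highest), Wnt10a (4.13 TPM, the lowest), Wnt7b (10.8 TPM, the lowest), Sox17 (0.0293 TPM, the lowest), C4b (41.3 TPM, the highest). In KO-labelled 6694c2 these were Gjb2 (0.73 TPM, the highest), Agr2 (1.47 TPM, the lowest), Cldn4 (2.32 TPM, the highest), Chil4 (35.3 TPM, the lowest). In KO-labelled 6419c5 these were Gkn2 (0.431 TPM, the highest), Ddr2 (0.96 TPM, the lowest), Cxcl9 (339 TPM, the highest), Mrc1 (178 TPM, the highest), Krt19 (3308 TPM, the lowest).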

How the results depend on the processing

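The counts of genes called higher in 6694c2 (3186), higher in 6419c5 (5055), called in WT (7567), with a changed clone difference (4006) and persisting (4908) stayed within 1.5 times under other pseudocounts, filters and scalings, which gave 4309 to 5092 persisting genes. Leaving out 1 library gave 2922 to 3400, 4743 to 5259, 6438 to 8025, 3390 to 4313 and 4403 to 5062. With the line as a random effect the counts were 819, 1610 and, persisting, 1906; with the 4 line means as the values 20, 51 and 67; with the fibroblast and pericyte score as a covariate 2135 were higher in 6419c5. With the library number as a replicate block, 3080 and 4603 were called. Deviations from the line mean correlated at −0.168 to 0.268 in 12 pairs of same-numbered KO-labelled libraries taken across the clones, over 0.1 in 3. Same-numbered libraries within a clone and WT libraries were not compared, so whether the number pairs libraries was not settled. The cause of these shifts was not tested. TPM keeps no depth, so low values such as those near 0 have an unknown counting error.

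Of the genes named, those called and changing sign in some setting were Dusp4, Etv4, Tgfb1, Wnt7b, Gata6, Cd14 and Csf3; the others below were not called. All values are the differences under that setting. With 6694c2 KOA libraries 1 and 2 only values were Halr1 (−0.18), Csf2 (−0.24), H2-K1 (0.091). With 6694c2 KOA libraries 3 and 4 only values were Tspan11 (0.29), Pzp (−0.098), Mgp (0.065), Arap3 (0.13), Cxcl1 (0.46). With the fibroblast and pericyte score values were Tspan11 (0.87), Pzp (−1.1), Ddr2 (0.39), Pdpn (0.041), Mgp (0.72), Mcpt8 (0.37), Arap3 (1.0), Trp53 (0.035), Myc (0.24), Xist (0.42), Cxcl1 (1.80), Csf3 (0.41), Cd74 (−0.81). With the interferon score values were H2-K1 (0.18). Without 6419c5 KOA values were Gata6 (−0.043), Pdx1 (−0.017). Without 6419c5 KOB values were Mtap (−0.036), Halr1 (−0.15), Tspan11 (0.22), Agr2 (−0.14), Mcpt8 (0.048), Cd14 (0.15), Myc (0.099), H2-K1 (0.37). Without 6694c2 KOA values were Halr1 (−0.54), Spn (−1.31), Dusp4 (−0.071), Etv4 (−0.054), Tgfb1 (−0.68), Vim (−0.22), Csf2 (−0.62), H2-K1 (0.14). Without 6694c2 KOB values were Mtap (−0.26), Tspan11 (0.50), Ddr2 (0.16), Pdpn (0.74), Prl2c3 (0.35), Mgp (0.18), Mcpt8 (1.59), Arap3 (1.64), Wnt7b (0.48), Pdx1 (−0.085), Cxcl1 (0.11), Cd74 (−0.076). With the macrophage score values were H2-K1 (0.0064). With median-of-ratios size factors values were H2-K1 (0.081). With a pseudocount of 0.1 values were Halr1 (−0.014). With a pseudocount of 5 values were Tspan11 (0.011), Arap3 (0.030). With quantile normalization values were Tspan11 (0.00095), Trp53 (0.0050). With the replicate block values were H2-K1 (0.024). With 1 library left out, values ran over 0 for Tspan11 −0.25 to 0.045, Cxcl1 −0.50 to 0.13, Halr1 −0.12 to 0.26, H2-K1 −0.24 to 0.14.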

Other observations

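Histone genes, a group chosen after its values were seen, differed more than most. Of 62 tested genes whose symbols start with Hist, 42 were higher in 6694c2 and 1 in 6419c5 among KO-labelled libraries, beside 22.7% and 36.0% of all genes. Their median difference was 0.80, and 1.35 among WT libraries, and 36 persisted. All 8 libraries of 6694c2 lay above all 6 of 6419c5 for 14 of them. Many are near-identical copies in clusters, 49 of them in 1 window of chromosome 13, so reads may have been shared between members.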
